A study of Mus musculus with 6 samples.

Results

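The genes described here encode CXC chemokines and their receptors: the ligands Cxcl1, Cxcl2, Cxcl9, Cxcl10, Cxcl12, Cxcl14 and Cxcl16, and the receptors Cxcr3 and Cxcr4. They were taken by symbol, with every non-control probe whose transcript accession belongs to 1 of these 9 genes, which gave 11 of the 39429 probes of the array. For each gene, 1 probe was scored well above background on all arrays of IL-4, PBS or both. These 9 probes were tested among 29759 genes or unnamed transcripts, and the other 2, of Cxcl9 and Cxcl12, were too dim to test.

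The measurements come from BV2, a permanent mouse line derived from microglia, which are the macrophages that live in brain tissue. On plates coated with poly-L-lysine, the cells received either 10 ng/ml recombinant murine IL-4, a cytokine that drives alternative activation of macrophages, or PBS, and 24 hr later their RNA was hybridised to single-colour Agilent arrays. Each group had 3 samples on 1 array each, and no genetic change is named for either. Whether the samples were separate cultures is not stated in the labels, and p-values here reflect how much these particular samples vary, and that variation may be technical. All samples are of 1 cell line. The sample labels give PBS for the control, where the design text has untreated cells, and 1 label field, at odds with the others, speaks of human blood.

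The 3 IL-4 arrays and the array of PBS replicate 1 shared a scan record and are taken to lie on slide 1. Those of PBS replicates 2 and 3 shared another and are taken to lie on slide 2. Slide is inferred from these records throughout. Each difference is therefore given over all 6 arrays and again within slide 1, where the 3 IL-4 arrays stand against a single PBS array. Levels are log2 processed signals less the array's own 75th percentile, so that a difference of 1 is a 2-fold change. That percentile was a signal of 674 to 876. Between 87.9% and 98.0% of all probes counted as well above background, so this flag was met by most probes of the array whatever their gene. The lowest shares, 87.9% and 89.5%, were those of IL-4 replicate 1 and PBS replicate 2, the arrays in slide position 1. Their median local background was 21.5 and 22.0, beside 16.5 to 18.0 on the other arrays. Saturation affected 0 spots. With 3 arrays a group, the number of arrays sets the precision.

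Chemokines are small secreted proteins that guide leukocytes along concentration gradients through receptors coupled to inhibitory G proteins, and the CXC class has a single residue between its first cysteines. Cxcl1 and Cxcl2 attract neutrophils through Cxcr2 and are classical NF-kB targets. Cxcl9 and Cxcl10 are induced by interferons and attract activated T cells through Cxcr3, while Cxcl12 acts on Cxcr4 and retains or recruits stem cells, leukocytes and neurons. In the brain, microglia are a source of Cxcl2 and Cxcl10 during inflammation.

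Of the 9 genes, Cxcr4 fell with IL-4 and no other passed the test over all genes (adjusted p under 0.05, limma). Over all tested genes 3.34% passed, 0.803% as higher and 2.54% as lower with IL-4. Within slide 1, against its single PBS array, the difference was -0.54 for Cxcr4 beside -0.72 over all arrays and 0.57 for the ligand Cxcl10 beside 0.42. The call of Cxcr4 was lost with slide as a block (adjusted p = 0.22, limma), and both comparisons share the 3 IL-4 arrays and PBS replicate 1. The pooled differences of Cxcl12 and Cxcl16, in contrast, were near 0 within slide 1. Cxcl1, Cxcl9 and Cxcr3 had pooled differences of 0.08, -0.06 and -0.01. The groups did not overlap for 4 of the 9 genes, namely Cxcl2 and Cxcl10 on the higher side and Cxcr4 and Cxcl14 on the lower side. This was also true of 37.9% of all tested genes, 18.1% on the higher and 19.8% on the lower side, so the count by itself does not set these genes apart.

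**Figure D1:**
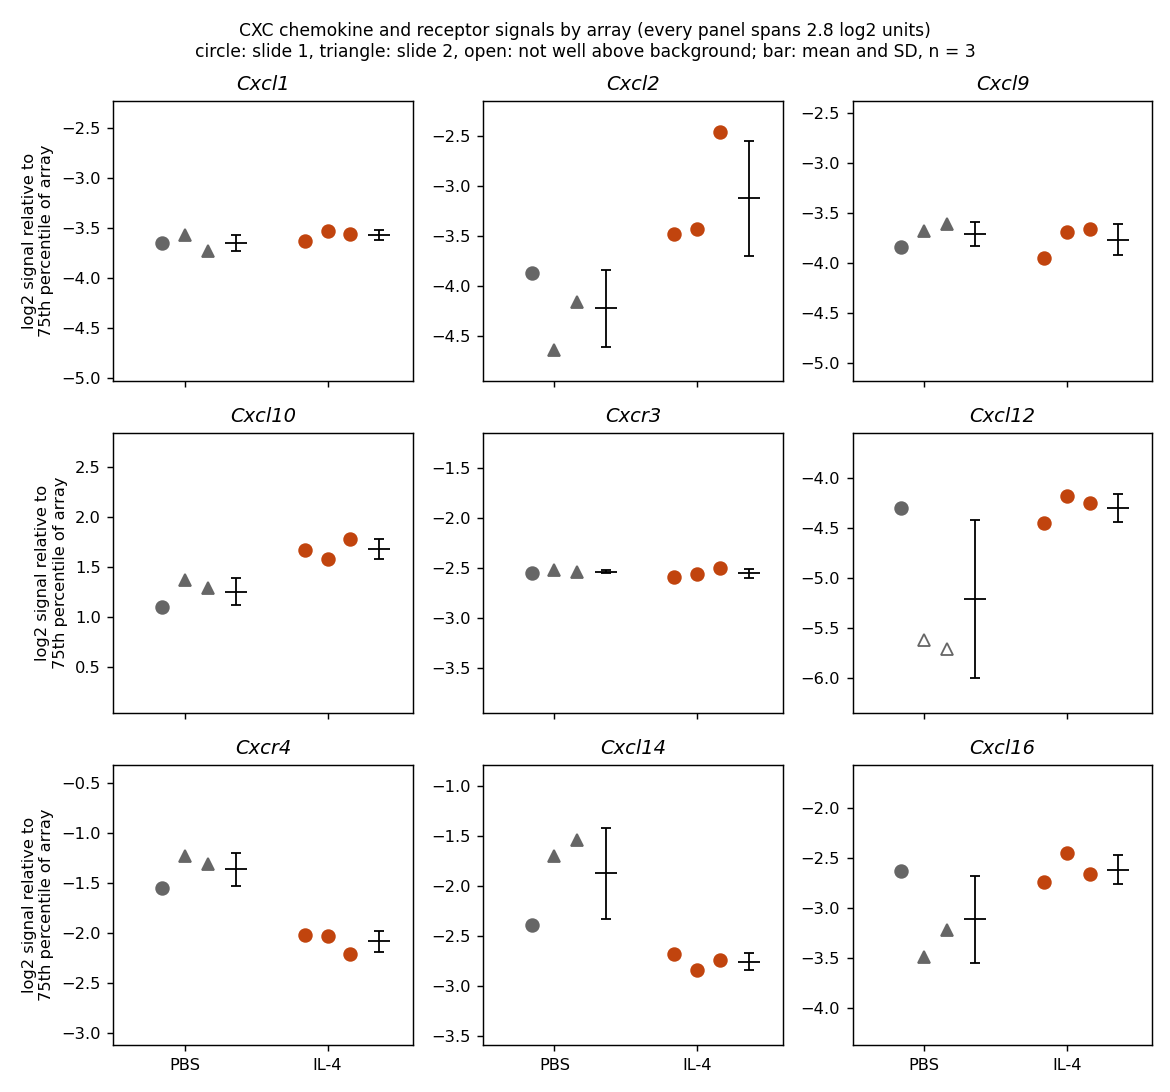
Level of each gene as log2 signal minus the 75th percentile of its array (vertical axis) for the tested probe of each gene on the 3 PBS arrays (grey) and the 3 IL-4 arrays (orange), with circles for slide 1, triangles for slide 2, open symbols for spots not well above background, and a bar for the mean and SD. Cxcr4 lay at -2.21 to -2.02 with IL-4, below all PBS arrays, while the PBS array of slide 1 sat among the IL-4 arrays for Cxcl12 and Cxcl16.

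Cxcl1 and Cxcl2, the neutrophil attractants, are paralogs that lie next to each other on chromosome 5. The 250 bases before their starts are shown because both hold a match to the same motif, while the fold changes of the genes were 0.08 and 1.10 on the log2 scale and neither passed. They are read from RefSeq, assembly GRCm38.p6, on the strand of the gene, at chr5:90890995-90891244 (plus strand) for Cxcl1 and chr5:90903649-90903898 (plus strand) for Cxcl2. Capitals mark matches to the NF-kB consensus, searched on both strands.
Cxcl1: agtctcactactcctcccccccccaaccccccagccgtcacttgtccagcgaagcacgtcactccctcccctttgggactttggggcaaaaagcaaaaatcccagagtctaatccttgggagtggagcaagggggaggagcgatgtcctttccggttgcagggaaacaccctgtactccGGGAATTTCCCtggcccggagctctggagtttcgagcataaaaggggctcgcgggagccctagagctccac
Cxcl2: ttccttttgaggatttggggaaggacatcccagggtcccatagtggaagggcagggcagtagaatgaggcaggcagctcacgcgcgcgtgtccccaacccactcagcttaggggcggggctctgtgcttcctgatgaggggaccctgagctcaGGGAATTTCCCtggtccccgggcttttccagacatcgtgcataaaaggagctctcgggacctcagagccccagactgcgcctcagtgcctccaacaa
Each window held 2 overlapping matches, spanning bases 71 to 61 before the start in Cxcl1 and bases 97 to 87 in Cxcl2. The run of capitals has the same letters in both. Of 32817 promoter windows of this length, 7.25% hold a match. A match describes the letters of the window and is not a measured binding site.

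The log2 level of Cxcl1 was -3.64, -3.57 and -3.72 on PBS arrays 1 to 3 and -3.62, -3.52 and -3.55 on IL-4 arrays 1 to 3. The groups overlapped and the values were close on all 6 arrays. The log2 fold change was 0.08 ± 0.10 (SE), with a 95% interval of -0.15 to 0.31 (adjusted p = 0.58, limma), and the difference within slide 1 was 0.08. Cxcl2 was at -3.87, -4.64 and -4.17 with PBS and at -3.48, -3.43 and -2.46 with IL-4. Every IL-4 array was above every PBS array, and IL-4 replicate 3 stood far above the other IL-4 arrays. The mean level with PBS was -4.23 ± 0.39 and that with IL-4 was -3.13 ± 0.58 (SD, n = 3 each), a 2.15-fold difference. The log2 fold change was 1.10 ± 0.30, with an interval of 0.41 to 1.79, and it missed the threshold (adjusted p = 0.063, limma).

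Within slide 1 the difference of Cxcl2 was 0.75, and 0.810% of all genes had one as large. IL-4 replicate 3, at -2.46, raised it, while the other IL-4 arrays were at -3.48 and -3.43 and PBS replicate 1 at -3.87. The processed signal of Cxcl2 was low, at 27.0 to 59.8 with PBS and 64.9 to 133 with IL-4. With slide as a block its interval was -0.22 to 1.72 (adjusted p = 0.60, limma). Cxcl2 passed without PBS replicate 1 (1.28, adjusted p = 0.019, limma), with quantile normalization (1.13, adjusted p = 0.046) and with probes above background on all 6 arrays (adjusted p = 0.045). With normexp background correction its difference was smaller, at 0.56 after quantile and 0.53 after 75th percentile scaling (adjusted p = 0.051 and 0.040, limma). Without IL-4 replicate 3, the brightest array for Cxcl2, the difference over the remaining arrays of both slides was 0.77.

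The contrast between the neighbours was examined after their values were seen. The level of Cxcl2 minus that of Cxcl1 on the same array changed by 1.02 between PBS and IL-4. The exact two-sided permutation test over the 6 arrays gave p = 0.10, the smallest that 3 against 3 can give. Within slide 1 the change in this gap was 0.67.

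Genes around the control of both chemokines were examined as well. Of 16 genes of the NF-kB pathway, 0 passed in limma after adjustment and 5 had an unadjusted p under 0.05. Over all tested genes 3.34% passed and 34.1% had such an unadjusted p, so these counts do not set the 16 genes apart. The log2 fold changes of the 16 ran from -0.36 to 0.47 with a median of -0.10, beside a median of -0.05 over all tested genes. Of 8 factors of mRNA decay and stability, Zfp36 rose by 0.71 ± 0.12 (adjusted p = 0.035, limma) and the others did not pass. Zfp36 encodes tristetraprolin, which binds AU-rich elements and speeds the decay of chemokine mRNAs such as those of Cxcl1 and Cxcl2. Its difference within slide 1 was 0.57 (adjusted p = 0.24 with slide as a block, limma). The receptor of both ligands, Cxcr2, named for that pairing, had a log2 fold change of -0.22 ± 0.17 (adjusted p = 0.37, limma).

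Cxcl10 and Cxcl9, the interferon-inducible ligands of Cxcr3, also lie close together on chromosome 5, with 1 annotated gene, Art3, between them. The window of Cxcl10 (RefSeq, GRCm38.p6, chr5:92348890-92349139, minus strand) is shown because Cxcl10 had the larger difference of the pair. Capitals mark a match to the interferon-stimulated response element, in which GAAA recurs after 2 bases, and matches to the NF-kB consensus.
Cxcl10: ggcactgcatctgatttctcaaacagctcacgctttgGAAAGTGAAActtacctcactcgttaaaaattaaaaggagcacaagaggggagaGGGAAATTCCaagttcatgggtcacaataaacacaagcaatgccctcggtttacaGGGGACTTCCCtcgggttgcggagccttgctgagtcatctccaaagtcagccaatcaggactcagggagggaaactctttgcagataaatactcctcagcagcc
The match to the response element spanned bases 213 to 204 before the start. The NF-kB consensus matched at bases 159 to 150 and, in 2 overlapping matches, at bases 104 to 94. Of all windows, 2.97% hold a match to the response element on either strand. The window of Cxcl9 held neither of these, which says only that these letters are not in it.

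Cxcl10 was at 1.11, 1.37 and 1.29 on PBS arrays 1 to 3 and at 1.68, 1.58 and 1.78 on IL-4 arrays 1 to 3. All IL-4 arrays were above all PBS arrays, and the PBS array of slide 1 was the lowest of the 6. In processed signal these were 1889, 1746 and 1774 against 2326, 2564 and 2526. The mean level with PBS was 1.26 ± 0.14 and that with IL-4 was 1.68 ± 0.10 (SD, n = 3 each). This 1.34-fold difference, a log2 fold change of 0.42 ± 0.11 with an interval of 0.16 to 0.69, missed the threshold (adjusted p = 0.062, limma). Within slide 1 it was larger, at 0.57, a size reached by 2.40% of all genes. With slide as a block its interval was 0.28 to 0.87 (adjusted p = 0.20, limma). Cxcl10 passed in 6 of 21 alternatives, among them the authors' value table (0.47, adjusted p = 0.039) and the analysis without PBS replicate 1 (0.35, adjusted p = 0.027, limma).

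The tested probe of Cxcl9 lay at -3.85, -3.68 and -3.61 with PBS and at -3.95, -3.69 and -3.66 with IL-4. The groups overlapped. Its log2 fold change was -0.06 ± 0.12, with an interval of -0.34 to 0.23 (adjusted p = 0.76, limma), and it was 0.08 within slide 1. The second probe of Cxcl9 was dim, at processed signals of 3.34 to 14.6, and was well above background on 1 array of each group. The level of Cxcl10 minus that of Cxcl9, a contrast chosen after its values were seen, changed by 0.48 with IL-4 and by 0.49 within slide 1 (exact two-sided permutation p = 0.10, the smallest possible).

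Cxcr3, the receptor of Cxcl9 and Cxcl10 on activated T cells, was the least variable of the 9 genes. Its level was -2.55, -2.52 and -2.54 with PBS and -2.60, -2.56 and -2.50 with IL-4, in overlapping ranges. The log2 fold change was -0.01 ± 0.09, with an interval of -0.23 to 0.20 (adjusted p = 0.93, limma), and the difference within slide 1 was -0.00033. Of 9 T cell marker genes, 0 passed in limma and 4 had an unadjusted p under 0.05, against 34.1% of all tested genes. The summed linear signal of these 9 markers, in units of the 75th percentile, was 29.9 to 31.8 on IL-4 arrays and 20.7 to 25.9 on PBS arrays. Cd4, which myeloid cells can also express, made most of that gap, with 7.76 to 9.66 against 2.03 to 5.01. Without it the sums were 22.1 to 23.0 and 18.6 to 22.1. These sums keep outlier spots, and Cd4 had a PBS spot flagged as an outlier. Of the 9 markers, 8 were well above background on all arrays, a flag that most probes of the array met whatever their gene. All samples are of the same cell line, so these signals were not read as T cells in the samples. A link between the markers and the values of Cxcr3 was not tested.

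In the list of 24 genes of the interferon axis, Socs1 rose and 4 genes fell. The shares called over all tested genes were 0.803% higher and 2.54% lower. Socs1, a feedback inhibitor of JAK and STAT signalling, rose by 1.17 ± 0.14 (adjusted p = 0.025, limma). Ifnar1, a subunit of the type I interferon receptor, had a log2 fold change of -0.78 ± 0.13, and the transcription factor gene Irf8 one of -0.67 ± 0.12 (adjusted p = 0.033 and 0.039, limma). The remaining genes that fell, named after their values were seen, were the receptor subunits Ifngr2 and Ifnar2, at -0.59 ± 0.12 and -0.50 ± 0.11. Within slide 1 these differences were 0.89 for Socs1, -0.55 for Ifnar1, -0.48 for Irf8, -0.36 for Ifngr2 and -0.35 for Ifnar2. None of these 5 genes passed in the fit with a slide block (adjusted p = 0.12 to 0.34, limma). The median of the list was -0.06 over all arrays and 0.06 within slide 1.

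Cxcr4, the receptor of Cxcl12, was the gene that passed. Its window (RefSeq, GRCm38.p6, chr1:128592300-128592549, minus strand) is shown because none of 3 motifs was found in it, neither the STAT6 motif, TTC and GAA with 4 bases between, the interferon response element nor the NF-kB consensus. The motifs were searched on both strands. It therefore has no capitals, and nothing about these factors follows from that.
Cxcr4: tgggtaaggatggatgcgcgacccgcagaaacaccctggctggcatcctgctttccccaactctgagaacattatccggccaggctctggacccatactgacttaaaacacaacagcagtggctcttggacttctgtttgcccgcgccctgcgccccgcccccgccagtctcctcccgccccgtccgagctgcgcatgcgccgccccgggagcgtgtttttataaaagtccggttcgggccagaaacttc
The STAT6 motif occurs in 5.85% of all windows. The windows of Cxcl9, Cxcl12 and Cxcr3 held none of the 3 motifs either. The STAT6 motif was in none of the 8 windows found for these genes, so its absence is not particular to Cxcr4.

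The processed signal of Cxcr4 was 300.1, 287 and 294 on PBS arrays 1 to 3 and 179, 210.1 and 159 on IL-4 arrays 1 to 3. On the log2 scale the PBS arrays were at -1.55, -1.23 and -1.31 and the IL-4 arrays at -2.02, -2.03 and -2.21. Every IL-4 array was below every PBS array, and the PBS array of slide 1 was the lowest of its group. The mean level with PBS was -1.36 ± 0.16 and that with IL-4 was -2.08 ± 0.11 (SD, n = 3 each). Cxcr4 was 1.65-fold lower with IL-4, a log2 fold change of -0.72 ± 0.12 with an interval of -1.0 to -0.44 (adjusted p = 0.035, limma). Of all tested genes, 6.95% had a difference of this size or larger.

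Against the PBS array of slide 1 the difference of Cxcr4 was -0.54, and 2.94% of all genes had one as large. With slide as a block the interval was -0.84 to -0.24 and the call was lost (adjusted p = 0.22, limma). The call was also lost without the filter on dim probes (adjusted p = 0.066, limma), on slide 1 alone (adjusted p = 0.33) and without the arrays in slide position 1 (-0.69, adjusted p = 0.40, limma). It was lost when any array but PBS replicate 1 was left out, with differences of -0.76, -0.75 and -0.66 without IL-4 replicates 1, 2 and 3 and of -0.66 and -0.70 without PBS replicates 2 and 3 (adjusted p = 0.13 to 0.16, limma). Without PBS replicate 1 it was -0.82 (adjusted p = 0.0014, limma). The difference kept its sign in all 21 alternatives.

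The 3 genes whose centred levels over the 6 arrays were closest to those of Cxcr4 were Spaca9, the cyclin G2 gene Ccng2 and the DNA methyltransferase gene Dnmt3a. Their root mean square differences from Cxcr4 were 0.045, 0.051 and 0.051 log2 units, beside a root mean square of 0.38 for Cxcr4 around its own mean. Their log2 fold changes were -0.70, -0.72 and -0.66.

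Some genes of myeloid identity fell along with Cxcr4. Of 14 markers of macrophages and microglia, 13 were tested and were well above background on all 6 arrays. The share called lower over all tested genes was 2.54%. Aif1, Tyrobp and Lyz2 fell, by 0.72, 0.95 and 0.81 on the log2 scale (adjusted p = 0.037, 0.040 and 0.035, limma), and the other 10 did not pass. Within slide 1 they differed by -0.49, -0.54 and -0.55, and none passed with a slide block (adjusted p = 0.23, 0.22 and 0.22, limma). The summed linear signal of the 13 genes, in units of the 75th percentile, was 57.7 to 63.8 with IL-4 and 64.8 to 78.1 with PBS. Their median log2 fold change was -0.41, and -0.21 within slide 1. Its part in the fall of Cxcr4 was not tested, and fewer cells with a transcript cannot be told apart from less of it per cell.

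Cxcl12, the ligand of Cxcr4, was dim. The processed signal of its tested probe was 44.6, 13.7 and 13.9 on PBS arrays 1 to 3 and 33.2, 47.3 and 38.6 on IL-4 arrays 1 to 3. The IL-4 arrays and PBS replicate 1, all on slide 1, were alike, and both PBS arrays of slide 2 were lower and not well above background. The modelled error of the scanner software was 27.0% and 24.1% of the signal on those arrays, beside 11.0% on PBS replicate 1. The probe entered the test through its IL-4 arrays, with 1 of 3 PBS arrays well above background, so its fold change is uncertain. Over all arrays it was 0.92 ± 0.34 on the log2 scale, with an interval of 0.13 to 1.70 (adjusted p = 0.11, limma). Within slide 1 it was 0.0037, with an interval of -0.32 to 0.33 for slide as a block. PBS replicate 1 exceeded the mean of PBS replicates 2 and 3 by 1.37, and 1.10% of all genes had a gap as large between the PBS arrays.

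A difference between the slides and a difference of PBS replicate 1 from the other PBS samples cannot be told apart for Cxcl12. Without PBS replicate 1, no PBS spot of Cxcl12 is well above background, and no fold change is given. With normexp background correction the difference over all arrays was 0.27 after quantile and 0.23 after 75th percentile scaling. The second probe of Cxcl12, for another transcript accession, was well above background on 2 of 3 IL-4 arrays and 1 of 3 PBS arrays. Its mean level was -6.35 ± 0.86 with IL-4 and -6.54 ± 0.76 with PBS (SD, n = 3 each), and its difference within slide 1 was -0.21. Of 8 fibroblast markers, genes of a cell type known for making Cxcl12, 6 were tested and 0 passed in limma. Of these 6, 1 had an unadjusted p under 0.05, against 34.1% of all tested genes. The summed linear signal of the 6 was 0.363 to 0.472 with IL-4 and 0.419 to 0.475 with PBS.

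Some genes that act below chemokine receptors fell. Of 28 tested genes of chemokine receptor signalling, 4 fell and 0 rose, and 12 had an unadjusted p under 0.05. Over all tested genes 2.54% were called lower and 0.803% higher, and 34.1% had an unadjusted p under 0.05 (limma). Rgs2, a regulator that shortens G protein signals, had a log2 fold change of -1.06 ± 0.15 (adjusted p = 0.025, limma). Arrb1, encoding an arrestin that uncouples and internalizes receptors, was at -0.60 ± 0.12, and Grk2, a kinase that marks active receptors for arrestin, at -0.54 ± 0.10 (adjusted p = 0.043 each, limma). Itch, a ubiquitin ligase that sorts Cxcr4 for degradation, named after its values were seen, was at -0.52 ± 0.11 (adjusted p = 0.046, limma). Within slide 1 they differed by -0.81, -0.45, -0.40 and -0.40 in that order, and none passed in the fit with a slide block (adjusted p = 0.18 to 0.31, limma). The median of the list was -0.14 over all arrays and -0.02 within slide 1.

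Among 12 genes of the hypoxia and glucocorticoid responses, which include known regulators and companions of Cxcr4, the clock gene Per1 rose by 0.53 ± 0.11 (adjusted p = 0.048, limma). Its difference within slide 1 was 0.42, and it did not pass with slide as a block (adjusted p = 0.34, limma). The other 11 did not pass, and the median of the list was 0.00090.

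Cxcl14, a homeostatic chemokine made by epithelia and stroma, was at -2.39, -1.70 and -1.54 on PBS arrays 1 to 3 and at -2.68, -2.85 and -2.75 on IL-4 arrays 1 to 3. Every IL-4 array was below every PBS array, and the PBS array of slide 1 lay closest to the IL-4 arrays. The mean level with PBS was -1.88 ± 0.45 and that with IL-4 was -2.76 ± 0.08 (SD, n = 3 each). The log2 fold change, -0.88 ± 0.21 with an interval of -1.37 to -0.40, missed the threshold (adjusted p = 0.054, limma). Within slide 1 the difference was -0.37, and with slide as a block its interval was -0.67 to -0.07 (adjusted p = 0.38, limma). PBS replicate 1 was 0.77 below the mean of PBS replicates 2 and 3. Cxcl14 passed without PBS replicate 1 (-1.14, adjusted p = 4.9e-04, limma) and in 5 other alternatives. Its promoter window held a match to the interferon response element at bases 172 to 163 before the start. Of all windows, 2.97% hold such a match, which is not a measured binding site.

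Cxcl16 is made as a transmembrane protein that binds Cxcr6 and takes up oxidized lipoprotein, and the proteases Adam10 and Adam17 release its chemokine domain. It was at -2.64, -3.49 and -3.22 on PBS arrays 1 to 3 and at -2.74, -2.45 and -2.66 on IL-4 arrays 1 to 3. PBS replicate 1 lay inside the IL-4 range, and both PBS arrays of slide 2 were lower. The log2 fold change was 0.50 ± 0.21, with an interval of 0.01 to 0.98 (adjusted p = 0.14, limma), but the difference within slide 1 was 0.02, with an interval of -0.37 to 0.41 for slide as a block. PBS replicate 1 exceeded the other PBS arrays by 0.72. Cxcl16 passed without PBS replicate 1 (0.74, adjusted p = 0.0054, limma), and normexp correction gave 0.30 after quantile and 0.27 after 75th percentile scaling. Its RefSeq promoter was not used here.

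The partners of Cxcl16 gave no call. Adam10 differed by -0.08 ± 0.10 (adjusted p = 0.59, limma) and Adam17 by -0.13 ± 0.12 (adjusted p = 0.44, limma). The receptor Cxcr6, named for that pairing, differed by -0.03 ± 0.16 (adjusted p = 0.91, limma). Of 8 tested proteases that shed or cut CXC chemokines, 0 passed in limma. Of these 8, 3 had an unadjusted p under 0.05, against 34.1% of all tested genes. The log2 fold changes of the 8 ran from -0.46 to 1.78 with a median of -0.09. The upper end was Elane, named after its values were seen, at 1.78 ± 0.63 (adjusted p = 0.10, limma). A PBS value of Elane was missing from the fit, and its difference within slide 1 was 0.53.

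**Figure D2:**
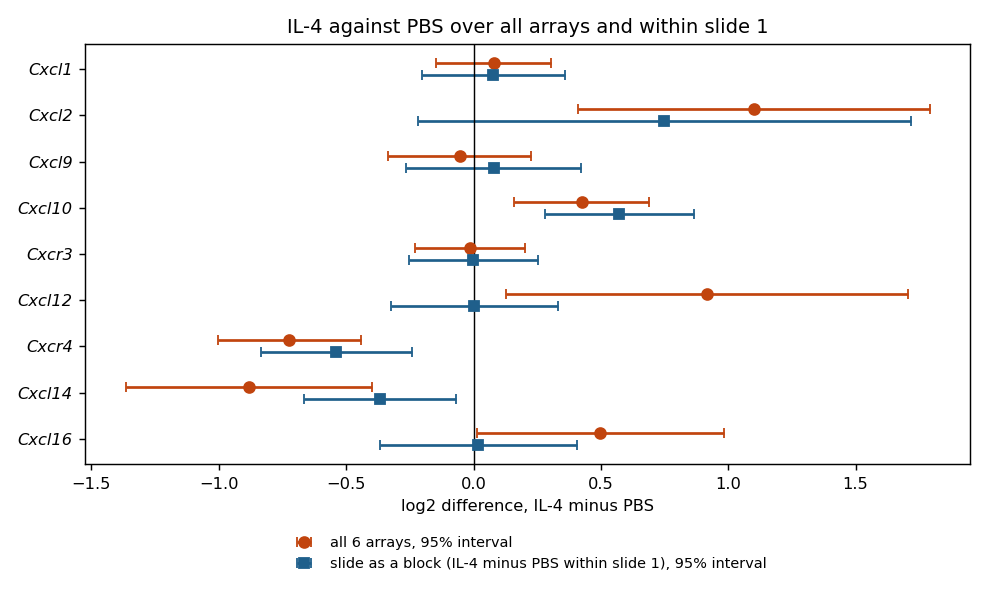
Log2 difference between IL-4 and PBS (horizontal axis) with its 95% interval for each gene, over all 6 arrays (orange circles) and with slide as a block, which equals the difference within slide 1 (blue squares). Cxcl12 moved from 0.92 to 0.0037 and Cxcl16 from 0.50 to 0.02, whereas Cxcl10 went from 0.42 to 0.57 and Cxcr4 from -0.72 to -0.54.

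Set side by side, the pooled and the within-slide values grouped the genes in 3 ways. Cxcl2, Cxcl10, Cxcr4 and Cxcl14 had all 3 IL-4 arrays on the same side of PBS replicate 1 and of the other PBS arrays. For Cxcl12 and Cxcl16, PBS replicate 1 lay inside the IL-4 range and the PBS arrays of slide 2 lay below it. Cxcl1, Cxcl9 and Cxcr3 had pooled differences whose intervals covered 0. All 3 IL-4 arrays lay on the same side of PBS replicate 1 for 5 of the 9 genes, 3 higher and 2 lower, as they did for 56.0% of all tested genes (30.5% higher and 25.5% lower). The additional gene, Cxcl1, was higher than that array by 0.08. With slide as a block 0 of the 9 passed in limma, and 0.0638% of all genes passed. An unadjusted p under 0.05 was reached by 3 of the 9 genes and by 10.2% of all tested genes with slide as a block, and by 6 of the 9 and 34.1% without it. The 6 include Cxcl12, whose probe entered the test through its IL-4 arrays, and Cxcl16. Within slide 1 the differences of these genes were 0.0037 and 0.02. The median of the absolute log2 fold changes over all arrays was 0.50 for the 9 genes, the value of Cxcl16, and 0.23 over all tested genes. Within slide 1 the middle of the 9 absolute differences was that of Cxcl9, 0.08, and 66.0% of all genes had a difference as large.

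Among other CXC ligands and receptors, listed with the Ackr genes, 11 of 16 genes were tested and 0 passed in limma. Of the 11, 3 had an unadjusted p under 0.05, against 34.1% of all tested genes. The log2 fold changes of the 11 ran from -0.39 to 0.70, with a median of 0.03 over all arrays and -0.0058 within slide 1. Cxcl3, Ppbp, Ackr3 and Ackr4 were on the array and too dim to test, whereas no probe was assigned to Cxcl11. Of 32 tested chemokines and receptors of the other classes, Ccl2, Ccl7 and Ccl12 rose and Ccl9 fell, with a median of -0.07 over the list, and 16 had an unadjusted p under 0.05. Within slide 1 these 4 genes differed by 1.11, 2.63, 1.05 and -0.51. Of these 32, Ccl7 passed with slide as a block (adjusted p = 0.039, limma) and the others did not. Markers of neutrophils, cells that bear Cxcr2, gave 1 call among 7 tested, S100a8 at -0.97 ± 0.19 (adjusted p = 0.042, limma). S100a8 differed by -0.64 within slide 1 and did not pass with slide as a block (adjusted p = 0.35, limma). The other tested neutrophil markers went the other way over all arrays, with log2 fold changes of 0.0061 to 0.35. The median of the 7 was 0.07, and -0.02 within slide 1. The summed linear signal of the 7 was 28.5 to 31.0 with IL-4 and 21.9 to 29.9 with PBS, nearly all of it from Csf3r, and without Csf3r it was 0.470 to 0.545 and 0.467 to 0.527. Of 5 astrocyte and 6 endothelial markers tested, 0 passed in limma, with 1 and 2 at an unadjusted p under 0.05. Over all genes, 239 were called higher and 756 lower with IL-4, a split that became 2016 and 2015 with normexp correction and 75th percentile scaling.

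**Figure D3:**
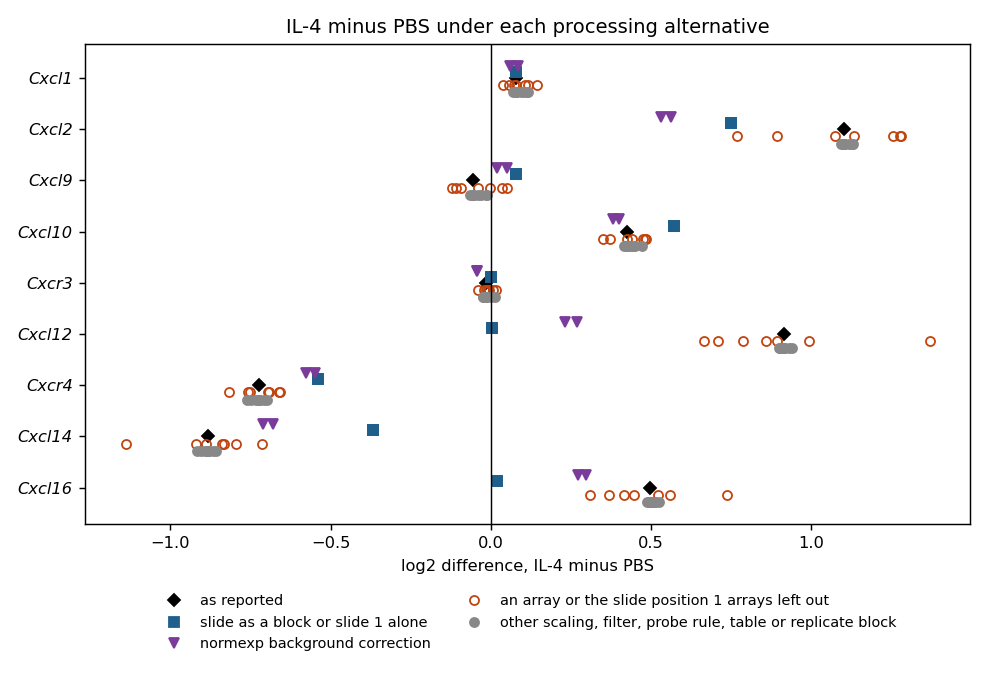
Log2 difference between IL-4 and PBS (horizontal axis) of each gene as reported (black diamonds) and under each alternative, grouped as in the legend. Cxcr4 stayed between -0.82 and -0.54 and Cxcl10 between 0.35 and 0.57, while Cxcl16 ranged from 0.02 to 0.74. The highest point of Cxcl12, without PBS replicate 1, rests on PBS spots not well above background.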

How the data were processed

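The authors deposited spot intensity values. Per the file headers they were made with Feature Extraction 11.0.1.1 of Agilent, background subtracted and detrended within each array and not normalized between arrays. The deposited value table is on a log2 scale with equal column medians (6.92). The sources used here do not give its normalization, and it served as an alternative.

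Outlier spots were left out, copies of a probe were averaged, and each array's 75th percentile was subtracted from its log2 processed signals. The summed linear signals of the marker lists kept outlier spots, so that every array had a value. A probe was tested if it was well above background on all arrays of IL-4, of PBS or of both, and each gene was represented by its brightest tested probe. Accessions were matched without version to RefSeq (GRCm38.p6), which named 27234 of 39429 probes (69.1%). The file headers give another build, so coordinates are those of RefSeq promoter windows, found for 8 of the 9 genes. The windows were cut to the 250 bases before the start.

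The comparison, IL-4 minus PBS with no block, used limma 3.58.1 (lmFit and eBayes) under R 4.3.3, and p was adjusted by Benjamini-Hochberg over all tested genes. SE and 95% intervals are those of the fit, and a missing spot was dropped from it. Slide was inferred from shared scan records. The steps were tested on simulated data. Normexp (offset 50) used the median spot and background signals. The genes described here and the lists were chosen with earlier results of these data known. The naming rule took all 9 genes, called genes of the lists (at most 3 by adjusted p) and the 3 closest patterns of a called gene. The alternatives were other scalings, background corrections, filters and probe rules, the authors' table, outlier spots kept, slide or replicate number as a block, slide 1 alone and each array left out. Leaving out the arrays in slide position 1 was added after seeing the data. Of the motifs searched in the promoter windows, 1 is not reported here.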

Additional observations from a re-analysis of the deposited data

How the results depend on the processing

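Over all genes the count of calls moved from 995 to 2598 with quantile normalization, 1669 with median scaling, 3059 and 4031 with normexp and quantile or 75th percentile scaling, 2280 with the authors' table, 15 without a filter, 3403 with probes above background on all 6 arrays, 601 with the mean of a gene's probes, 19 with slide as a block and 1 on slide 1 alone. Leaving out 1 array gave 0 to 12663 calls, the highest without PBS replicate 1 and 0 when IL-4 replicate 1 or PBS replicate 2 was dropped (7322 and 6293 at an unadjusted p under 0.05, limma), and leaving out the arrays in slide position 1 gave 0 (3660 at an unadjusted p under 0.05, limma). Of the 9 CXC genes, in the same order but for the mean of probes, 4, 2, 2, 4, 2, 0, 4, 0 and 0 were called (5, 3 and 3 at an unadjusted p under 0.05 in limma where 0 passed), 0 to 6 with an array left out, again the highest without PBS replicate 1, where they include Cxcl12 with no PBS spot well above background, and 0 without the arrays in slide position 1 (4 at an unadjusted p under 0.05, limma). Of the other list genes 15 were called, and 24 and 30 with normexp, 2 without a filter, 1 with slide as a block, 0 on slide 1 alone (25 at an unadjusted p under 0.05, limma), 0 to 70 with an array left out and 0 without the arrays in slide position 1.

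The replicate number as a block gave 3786 calls over all genes, 3 of the 9 CXC genes (Cxcl2, Cxcr4 and Cxcl14, adjusted p = 0.038, 0.033 and 0.039, limma) and 27 other list genes. The deviations of same-numbered arrays correlated across genes at 0.083, -0.016 and 0.30. IL-4 replicates 1 and 3 correlated best with the PBS array of their own number, and IL-4 replicate 2 with PBS replicate 1 (0.036). With 3 arrays a group, these values do not settle whether same-numbered samples were paired.

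Differences near 0 changed sign. Cxcl9 was 0.050 and 0.018 with normexp and quantile or 75th percentile scaling, 0.079 with slide as a block and on slide 1 alone, 0.050 without the arrays in slide position 1 and -0.12 to 0.035 with 1 array left out. Cxcr3 was 0.00097 with the percentile over probes above background on all arrays, 0.012 with outlier spots kept, 0.015 without the arrays in slide position 1 and -0.039 to 0.0073 with 1 array left out. Cxcl12 could not be tested with probes above background on all 6 arrays. The other 7 genes kept the sign of the difference over all arrays in every alternative run. Within slide 1, Cxcl12 was -0.0022 with median scaling, and with normexp and quantile Cxcl12 was -0.011 and Cxcl16 -0.041. Dim signals limit Cxcl12 and the second probes of Cxcl9 and Cxcl12 most.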
